A study of Mus musculus with 12 samples.

Results

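A set of 8 genes, Gm364, Nxf3, 1700013H16Rik, Capn11, Wdfy1, Ccdc141, AI662270 and Gm11543, was picked from 4 mouse embryonic stem cell lines because each differed several-fold between lines with the same genotype. They are 8 of the 31641 gene symbols in the count table, and all 8 passed the filter on low counts in every comparison. They had been listed as genes switched on in single lines, and the 12 libraries bear that out for some of them only. Gm364, Nxf3 and Ccdc141 were highest in the line Mut-1, and 1700013H16Rik was highest in the line WT-2. Capn11 was instead low in WT-1 and Gm11543 lowest in WT-2, whereas Wdfy1 was high in Mut-2 and WT-2 and AI662270 in Mut-2 and WT-1. They are therefore called here genes that differ between lines of 1 genotype. "Several-fold" is also loose for the smallest differences: between a pair of lines of 1 genotype, Ccdc141 reached only 2.02 times and Wdfy1 only 2.07 times.

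The cells were embryonic stem cells derived from blastocysts of the C57BL/6 strain, in 2 lines with the genotype Tin2 S341X (Mut-2 and Mut-1) and 2 wild-type lines (WT-2 and WT-1). Tin2 is the protein of the gene Tinf2, a subunit of the shelterin complex that protects telomeres. All 4 lines were cultured with serum and the cytokine LIF on a layer of mouse embryonic fibroblasts, and total RNA was taken from the cultures, so RNA of these feeder cells can be in every library. Each line gave 3 libraries, which the series' design text calls technical replicates. There were thus 12 libraries but only 2 lines per genotype, and the spread between libraries of a line is not the spread between independent lines. In bulk RNA, fewer cells of a type and less RNA per cell cannot be told apart.

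Library totals ran from 14766477 to 17891894 counts. Replicates 1 and 2 of WT-1 were closer to each other than any other libraries of a line (chi-square per degree of freedom 1.62, against 10.9 to 38.4), and both were kept. Tinf2 had 19.7 to 30.1 CPM (TMM-normalized counts scaled to a common library size) in the 6 mutant libraries and 57.65 to 69.2 CPM in the 6 wild-type libraries. The summed CPM of 12 pluripotency genes lay at 6789 to 7397 in Mut-2, 6000 to 7641 in Mut-1, 6725 to 7184 in WT-2 and 7027 to 7757 in WT-1, so the markers of the labelled cell type were present in all lines. The summed CPM of 23 fibroblast markers was 6696 to 9787 in Mut-2, 4827 to 10250 in Mut-1, 4485 to 5895 in WT-2 and 4740 to 5929 in WT-1, with none of the 23 at 0.

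An embryonic stem cell line is propagated from the inner cells of a blastocyst, so separate lines descend from separate founder cells. Several of the 8 genes, or their relatives, are best known from the testis and from the X chromosome, which carries many gene families active in male germ cells. In mice, part of the germline programme is kept silent in other cells by DNA methylation at promoters that contain CpG dinucleotides. The remaining genes encode a protein of endosomes, a coiled-coil protein of neurons, a non-coding transcript and a short transcript whose annotation differs between sources.

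**Figure D1:**
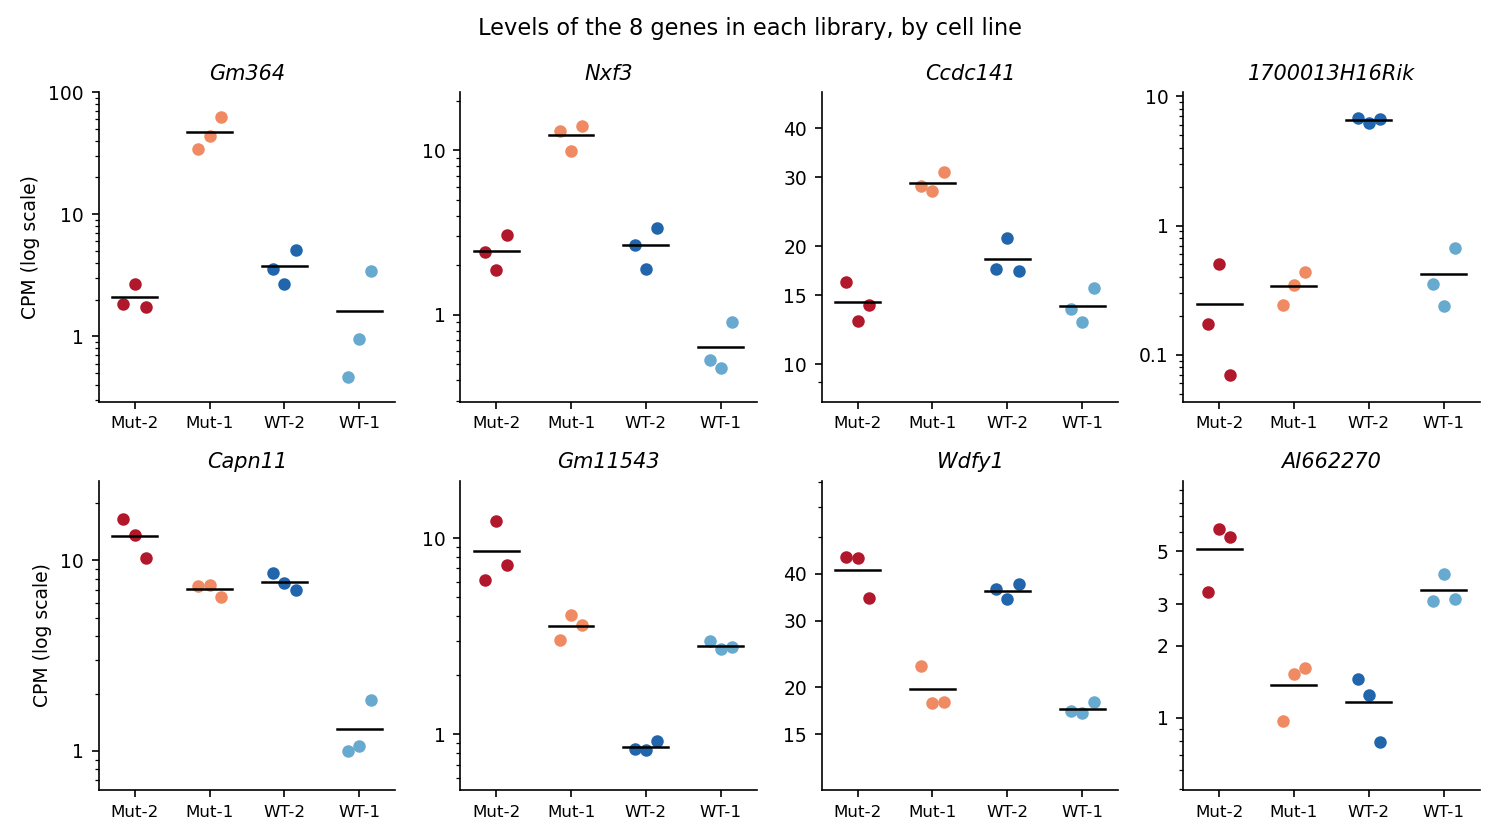
CPM (log scale, TMM-normalized) of the 8 genes in each of the 12 libraries, by line. Each point is 1 library and each bar is the mean of the 3 libraries of a line. In every panel the largest step between line means leaves the libraries above it clear of those below it. The gap between the nearest libraries ran from 1.32 times for Ccdc141 to 9.19 times for 1700013H16Rik. The genes were chosen to differ between lines and each step was picked from these values, so this is a description. The share of all genes with such a gap was not counted.

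Gm364 lies on the plus strand of the X chromosome (chrX:57409154-57488767, GRCm38) and is annotated as protein coding. It had 1.83, 2.69 and 1.73 CPM in the 3 Mut-2 libraries, 33.9, 44.0 and 62.6 CPM in Mut-1, 3.56, 2.67 and 5.09 CPM in WT-2, and 0.468, 0.947 and 3.42 CPM in WT-1. All 3 Mut-1 libraries stood far above the other 9, which were low and whose lines overlapped. The Mut-1 mean of 46.8 CPM was 12.4 times that of WT-2, the next line, and the lowest Mut-1 library was 6.66 times the highest library of any other line. The log2 fold change of Mut-2 over Mut-1 was -4.48, the largest in size among the 16533 genes tested in that pair. Replicate 3 was high for WT-1, and WT-2 over WT-1 had a log2 fold change of 1.21, which ran from 0.78 to 2.40 over the other settings and left-out libraries.

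1700013H16Rik lies on the minus strand of the same chromosome (chrX:53742901-53757831). RefSeq gives it the synonyms Slx2 and Xlr6, and Xlr stands for X-linked lymphocyte-regulated, a family related to a protein of meiotic chromosome axes. It had 0.172, 0.501 and 0.0692 CPM in Mut-2, 0.242, 0.345 and 0.4345 CPM in Mut-1, 6.76, 6.18 and 6.68 CPM in WT-2, and 0.351, 0.237 and 0.672 CPM in WT-1. The 3 WT-2 libraries were close to one another and stood above all 9 others. Summed over the libraries of a line, it had 12 counts in Mut-2 (exact 95% Poisson interval 6.2 to 21), 16 in Mut-1 (9.15 to 26), 317 in WT-2 (283 to 354) and 22 in WT-1 (13.8 to 33.3). These intervals cover counting error only, and those of Mut-2, Mut-1 and WT-1 overlap. The WT-2 mean was 15.6 times that of WT-1, the next line, a log2 fold change of 3.93. Mut-2 over Mut-1 had a log2 fold change of -0.43, which rests on few counts and was -1.41 without Mut-2 replicate 2, -0.036 without Mut-2 replicate 3 and -2.39 without the 3 libraries with the highest summed fibroblast markers, which leaves 1 Mut-2 library.

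Sequences around the transcription start were found for 5 of the 8 genes (RefSeq, GRCm38.p6, 250 bases before the start and 50 from it), and not for Wdfy1, AI662270 and Nxf3. The promoters of Gm364 and 1700013H16Rik are shown because these genes stood out in 1 line most clearly, and those of Capn11 and Gm11543 because these were low in 1 line. The Gm364 window is chrX:57408899-57409198 on the plus strand. The other windows are on the minus strand, at chrX:53757782-53758081 for 1700013H16Rik, chr17:45659260-45659559 for Capn11 and chr11:94829291-94829590 for Gm11543. Each is written 5′ to 3′ on the strand of its gene, with CpG dinucleotides in capitals.
Gm364 promoter: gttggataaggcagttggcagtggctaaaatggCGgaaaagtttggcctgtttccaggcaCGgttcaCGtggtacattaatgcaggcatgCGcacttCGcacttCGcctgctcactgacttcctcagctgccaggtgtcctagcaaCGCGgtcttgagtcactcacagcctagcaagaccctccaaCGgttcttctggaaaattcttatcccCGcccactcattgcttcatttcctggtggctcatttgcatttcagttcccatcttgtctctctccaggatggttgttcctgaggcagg
1700013H16Rik promoter: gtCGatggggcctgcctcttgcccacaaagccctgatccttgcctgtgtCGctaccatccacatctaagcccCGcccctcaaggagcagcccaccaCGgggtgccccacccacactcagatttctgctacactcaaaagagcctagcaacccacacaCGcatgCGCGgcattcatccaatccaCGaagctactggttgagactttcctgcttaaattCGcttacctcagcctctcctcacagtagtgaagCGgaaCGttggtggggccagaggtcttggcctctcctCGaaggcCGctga
Capn11 promoter: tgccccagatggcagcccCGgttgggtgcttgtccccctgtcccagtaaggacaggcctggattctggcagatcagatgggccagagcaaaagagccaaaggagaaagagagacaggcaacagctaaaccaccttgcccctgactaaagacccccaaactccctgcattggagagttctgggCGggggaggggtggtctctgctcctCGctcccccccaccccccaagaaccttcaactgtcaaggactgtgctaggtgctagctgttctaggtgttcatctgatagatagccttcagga
Gm11543 promoter: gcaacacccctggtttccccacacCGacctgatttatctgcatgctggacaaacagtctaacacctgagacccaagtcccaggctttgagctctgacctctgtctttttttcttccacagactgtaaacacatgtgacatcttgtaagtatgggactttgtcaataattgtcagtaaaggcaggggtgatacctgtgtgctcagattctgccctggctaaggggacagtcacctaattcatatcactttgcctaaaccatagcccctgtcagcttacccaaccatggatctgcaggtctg

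The X-linked windows held 10 CpGs (Gm364) and 13 CpGs (1700013H16Rik), against 3 in Capn11 and 1 in Gm11543. The Ccdc141 window (chr2:77170586-77170885, minus strand) held 7, which is the median of the 32851 promoters in the table. Of all promoters, 43.5% held at least 10 CpGs, 37.9% at least 13, 76.7% at least 3 and 94.6% at least 1. The TATA box TATAAA was searched on both strands of the windows, as were the E-box CACGTG, the GC box GGGCGG and the octamer GCATGCGC, which is part of the site of the factor NRF1. No match found overlapped another. GCATGCGC, chosen after the sequences had been read, is in the windows of both Gm364 (165 bases before the start) and 1700013H16Rik (92 bases before it) and in 2.71% of all promoters. CACGTG is in the Gm364 window, 185 bases before the start, and in 7.15% of promoters. GGGCGG is in the windows of Gm364, 1700013H16Rik and Capn11 and in 35.7% of promoters, and TATAAA is in none of the 5 windows and in 13.6% of promoters.

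Nxf3 is the remaining X-linked gene (chrX:136072099-136085255, minus strand) and belongs to the nuclear RNA export factors, whose founding member carries mRNA out of the nucleus. It had 2.40, 1.88 and 3.05 CPM in Mut-2, 13.1, 9.87 and 14.1 CPM in Mut-1, 2.66, 1.90 and 3.37 CPM in WT-2, and 0.527, 0.4735 and 0.896 CPM in WT-1. Mut-1 was highest, Mut-2 and WT-2 lay between with overlapping libraries, and WT-1 was below both. The Mut-1 mean was 4.67 times that of WT-2, and the Mut-2 mean was 3.86 times that of WT-1. Log2 fold changes were -2.34 for Mut-2 over Mut-1 and 2.04 for WT-2 over WT-1.

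No other export factor showed such steps. Of the 9 genes on the list of export factors, 8 were tested. Nxf3 was chosen on these same differences, so its own calls are no result of the comparison. In Mut-2 against Mut-1 none besides Nxf3 passed (edgeR, adjusted p below 0.05 and a change of at least 1 log2 unit). In WT-2 against WT-1 no gene of the list passed. In that pair Nxf3 alone had an unadjusted p under 0.05, as 7.61% of all tested genes had, and it passed with DESeq2 (0.242% of genes) and with the replicate number as a block (edgeR adjusted p = 0.0180, against 0.0738 without the block). The median log2 fold changes of the 8 were -0.09 in the mutant pair and -0.18 in the wild-type pair, against 0.02 and 0.01 over all tested genes. Nxf1, the general mRNA export receptor, averaged 169 CPM in Mut-2, 163 in Mut-1, 149.5 in WT-2 and 180 in WT-1. Its cofactor Nxt2 averaged 10.2, 10.35, 10.4 and 13.1 CPM in the same 4 lines, and the X-linked relative Nxf7 averaged 1.22, 1.525, 0.590 and 0.990 CPM.

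Capn11 (chr17:45630204-45659325, minus strand) encodes a calpain, a calcium-activated cysteine protease, known in mice from the testis. It had 16.4, 13.6 and 10.25 CPM in Mut-2, 7.32, 7.45 and 6.46 CPM in Mut-1, 8.63, 7.61 and 7.01 CPM in WT-2, and 0.995, 1.065 and 1.85 CPM in WT-1. The gene had 6.46 CPM or more in every library of 3 lines and stood out by its low level in WT-1, whose libraries were all below the other 9. The Mut-1 mean, the lowest of the 3, was 5.43 times the WT-1 mean. Mut-2 was above both Mut-1 and WT-2, which overlapped. Log2 fold changes were 0.93 for Mut-2 over Mut-1 and 2.56 for WT-2 over WT-1.

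The calpain list, of which 13 genes were tested, holds calpains, their small subunits and their inhibitor calpastatin. None besides Capn11, which was chosen on these differences, passed the threshold in WT-2 against WT-1. There 2 of the 13 (15.4%), Capn11 and Capn3, had an unadjusted p under 0.05, against 7.61% of all genes. Capn3 had a log2 fold change of -1.06 (edgeR unadjusted p = 0.0277, adjusted p = 0.609). None passed in Mut-2 against Mut-1 with edgeR or DESeq2. In that pair Capn11 alone had an unadjusted p under 0.05, as 6.88% of all genes had, and none besides it did. The list's medians were -0.04 in the wild-type pair and 0.08 in the mutant pair. Capn5 averaged 53.15 CPM in Mut-2, 54.0 in Mut-1, 67.7 in WT-2 and 47.8 in WT-1. The low calpains Capn3 and Capn9 averaged at most 0.949 and 1.715 CPM in any line.

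Wdfy1 (chr1:79702262-79776143, minus strand) encodes a protein with WD repeats and a FYVE domain that binds endosomal membranes and aids signalling from the Toll-like receptors TLR3 and TLR4. It had 44.2, 44.1 and 34.4 CPM in Mut-2, 22.8, 18.15 and 18.25 CPM in Mut-1, 36.4, 34.2 and 37.5 CPM in WT-2, and 17.3, 17.04 and 18.3 CPM in WT-1. The 6 libraries of Mut-2 and WT-2 were all above the 6 of Mut-1 and WT-1, with the same step in both genotypes. Log2 fold changes were 1.05 for Mut-2 over Mut-1 and 1.04 for WT-2 over WT-1. Ratios of line means between genotypes were 1.135 for Mut-2 over WT-2 and 1.125 for Mut-1 over WT-1, but 2.33 for Mut-2 over WT-1 and 0.548 for Mut-1 over WT-2. It shares 126 bases, exons included, with Mrpl44 on the opposite strand, whose mean was 28.2 CPM in Mut-2, 25.1 in Mut-1, 27.7 in WT-2 and 32.6 in WT-1. The strand setting of the counting is not known, so reads of the shared stretch cannot be assigned.

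Among 9 tested genes of the WDFY family and of TLR3 and TLR4 signalling, none besides Wdfy1 passed in either pair, by edgeR or DESeq2. None besides it had an unadjusted p under 0.05. Wdfy1 was chosen on these differences, so its own calls are no result of the comparison. Over all tested genes, edgeR called 0.0181% in the wild-type pair and 0.121% in the mutant pair. Traf6, a ubiquitin ligase of the pathway, averaged 32.8 CPM in Mut-2, 40.3 in Mut-1, 32.7 in WT-2 and 32.5 in WT-1. Ticam1, the adaptor to which Wdfy1 has been linked, averaged 10.8, 9.94, 7.80 and 10.9 CPM in the same lines. Its partner adaptor Ticam2 stayed below 1 CPM in every library.

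Ccdc141 (chr2:77009902-77170636, minus strand) encodes a coiled-coil protein, also named CAMDI, that binds the scaffold protein Disc1 and acts in the migration of neurons in mice. It had 16.2, 12.9 and 14.2 CPM in Mut-2, 28.6, 27.7 and 31.0 CPM in Mut-1, 17.5, 21.0 and 17.3 CPM in WT-2, and 13.8, 12.8 and 15.7 CPM in WT-1. The Mut-1 libraries were all above the other 9, with a gap of only 1.32 times to the nearest, and Mut-2 and WT-1 overlapped. The Mut-1 mean was 1.56 times that of WT-2. Log2 fold changes were -1.01 for Mut-2 over Mut-1 and 0.40 for WT-2 over WT-1. None of the 5 partner genes on its list passed in either pair with edgeR or DESeq2, and none of the 5 had an unadjusted p under 0.05 in either. Pafah1b1, which acts with dynein, averaged 235 CPM in Mut-2, 266 in Mut-1, 239 in WT-2 and 246 in WT-1, while the myosin heavy chain gene Myh10 averaged 106, 93.0, 113 and 104 CPM.

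AI662270 (chr11:83223576-83226604, plus strand) is annotated as a non-coding transcript. It had 3.38, 6.20 and 5.75 CPM in Mut-2, 0.968, 1.52 and 1.61 CPM in Mut-1, 1.45, 1.25 and 0.793 CPM in WT-2, and 3.10, 4.02 and 3.14 CPM in WT-1. Mut-2 and WT-1 were high and Mut-1 and WT-2 low, with no library crossing between the pairs of lines. Log2 fold changes were 1.90 for Mut-2 over Mut-1 and -1.54 for WT-2 over WT-1, opposite in the 2 genotypes. The gene shares 2151 bases, exons included, with the pseudogene Gm11427 on the same strand, so reads of the shared stretch cannot be told apart. Gm11427 averaged 5.845 CPM in Mut-2, 3.46 in Mut-1, 1.69 in WT-2 and 3.96 in WT-1.

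Gm11543 (chr11:94828186-94828930, minus strand) is an unprocessed pseudogene in GENCODE and protein coding in RefSeq, which places its start elsewhere. It had 6.125, 12.3 and 7.27 CPM in Mut-2, 3.03, 4.07 and 3.60 CPM in Mut-1, 0.845, 0.832 and 0.9255 CPM in WT-2, and 2.985, 2.72 and 2.80 CPM in WT-1. The WT-2 libraries were lowest and close to one another, and the 6 mutant libraries were all above the 6 wild-type libraries, by a margin of 3.03 against 2.985 CPM at the nearest. Log2 fold changes were 1.26 for Mut-2 over Mut-1 and -1.70 for WT-2 over WT-1.

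Levels of different genes were compared per kilobase of annotated exon. In the line where each was highest, Gm11543 in Mut-2 and Gm364 in Mut-1 led with 23.1 and 21.7 CPM per kb, although the figure for Gm11543 rests on a gene model of 370 bases. Wdfy1 in Mut-2 (6.30 CPM per kb), 1700013H16Rik in WT-2 (5.34), Capn11 in Mut-2 (4.96) and Nxf3 in Mut-1 (4.05) followed. Ccdc141 in Mut-1 had 2.48 CPM per kb and AI662270 in Mut-2 had 1.69.

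**Figure D2:**
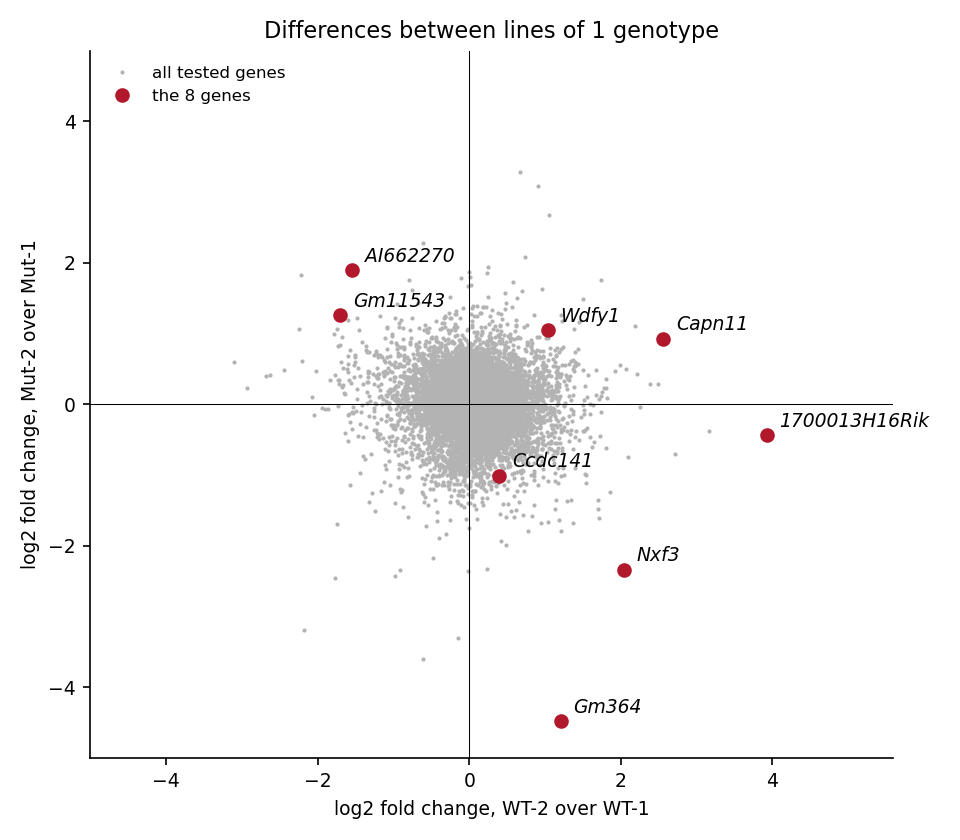
Log2 fold change of Mut-2 over Mut-1 (vertical) against that of WT-2 over WT-1 (horizontal) for the 16533 tested genes (grey) and the 8 genes (red). 1700013H16Rik lies far out on the horizontal axis (3.93), with a vertical value of -0.43 that rests on few counts. Wdfy1 lies alike on both axes (1.04 and 1.05), whereas Gm364, Nxf3, AI662270 and Gm11543 have opposite signs on the 2 axes. So does Ccdc141, with a smaller horizontal value (0.40) than vertical value (-1.01).

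Few genes differed between lines of 1 genotype at this depth. In WT-2 against WT-1, edgeR called 3 of 16533 genes (0.0181%), which had an adjusted p below 0.05 and differed by 1 log2 unit or more. All 3 were higher in WT-2, and they were Capn11, Wdfy1 and 1700013H16Rik. With the replicate number as a block, 6 genes passed (0.0363%), Nxf3 among them. The direction did not hold across methods, as DESeq2 called 11 genes higher and 29 lower in WT-2 and edgeR with no filter on low counts 51 higher and 50 lower. In Mut-2 against Mut-1, 20 genes (0.121%) were called. Higher in Mut-2 were 7 (0.0423%), with AI662270 and Wdfy1 among them, and lower were 13 (0.0786%), with Ccdc141, Gm364 and Nxf3. DESeq2 called 10 higher and 34 lower in Mut-2, edgeR with no filter 25 and 74, and edgeR with the block 8 and 20 (0.169% in all). The 8 genes were chosen on these same differences, so nothing is read from how many of them were called. Both counts rested on single libraries. That of the wild-type pair was 0 without replicate 1 or replicate 2 of WT-1 and 35 without its replicate 3, and 5 without replicate 3 of Mut-2 or of Mut-1, which enter the shared spread. That of the mutant pair was 2 without Mut-2 replicate 2, 3 without Mut-1 replicate 3 and 9 without Mut-1 replicate 2.

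The genotypes were compared on the summed counts of each line, 2 mutant against 2 wild-type lines. The genes were not chosen on this comparison, but they were chosen on the spread between lines that enters its error. None of the 8 genes passed an adjusted p of 0.05. By edgeR's quasi-likelihood test 0 of 18749 genes did (0.00%), and 2447 (13.1%) had an unadjusted p under 0.05, among them 4 of the 8 genes. DESeq2 on the line totals called 359 genes (1.91%). On the 12 libraries, limma with the line as a random block called 233 of 16533 genes (1.41%), with an estimated correlation within lines of -0.00251, so that the libraries entered almost as independent samples. With edgeR on the 12 libraries, the replicate number as a block and the lines not modelled, 319 genes passed (1.93%). None of the 8 was among the genes called in these 3 fits. The spread between lines of 1 genotype enters the error of these fits too. In which direction the choice of the 8 genes acts on these fits was not tested, and their lack of calls says little about the genotype. The count on line totals was 96 without Mut-1 replicate 3 and 11 without Mut-2 replicate 3.

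Gm364 averaged 24.2 ± 31.3 CPM in the mutant lines and 2.69 ± 1.47 CPM in the wild-type lines (SD, n = 2 lines each), and its log2 fold change was 3.17 (SE 1.11, edgeR adjusted p = 0.306). Nxf3 averaged 7.37 ± 6.99 CPM in the mutant lines and 1.63 ± 1.40 CPM in wild type, with a log2 fold change of 2.18 (SE 0.79, edgeR adjusted p = 0.312). Both values rested on Mut-1. Without that line the log2 fold change was -0.36 for Gm364, which changed direction, and 0.58 for Nxf3. Without Mut-2, the remaining mutant line gave both genes an adjusted p under 0.05 (edgeR, 0.000412 for Gm364 and 0.0251 for Nxf3). In that fit 1 mutant line is set against 2 wild-type lines and is assumed to vary as they do.

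1700013H16Rik averaged 0.294 ± 0.0601 CPM in the mutant lines and 3.48 ± 4.32 CPM in wild type, and its log2 fold change of -3.55 (SE 1.085, edgeR adjusted p = 0.257) rested on WT-2, without which it was -0.54. Without WT-1 it passed (edgeR adjusted p = 0.00133), with WT-2 as the lone wild-type line. Gm11543 averaged 6.025 ± 3.56 CPM in the mutant lines and 1.86 ± 1.41 CPM in wild type, a log2 fold change of 1.69 (SE 0.56, edgeR adjusted p = 0.289), which was 0.91 without Mut-2, 1.07 without WT-2 and 2.80 without WT-1. It was the only one of the 8 genes whose mutant libraries were all above the wild-type libraries, which held for 233 of 16533 genes (1.41%). None of the 8 had all mutant libraries below, as 121 genes had (0.732%).

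Capn11 averaged 10.3 ± 4.72 CPM in the mutant lines and 4.55 ± 4.56 CPM in wild type, and its log2 fold change was 1.19 (SE 0.66, edgeR adjusted p = 0.484). It was 0.62 without Mut-2, 2.96 without WT-2 and 0.42 without WT-1. In Ccdc141, Wdfy1 and AI662270 the sign of the genotype difference was set by single lines. Ccdc141 had a log2 fold change of 0.40 (SE 0.30, edgeR adjusted p = 0.608), which was -0.18 without Mut-1. Wdfy1 had 0.18 (SE 0.39, edgeR adjusted p = 0.880), which was -0.45 without Mut-2 and -0.24 without WT-1. AI662270 had 0.47 (SE 0.63, edgeR adjusted p = 0.800), which was -0.78 without Mut-2 and -0.11 without WT-2. All 23 fibroblast markers had higher values in the mutant lines, with a median log2 fold change of 0.58, and none passed. Without the 3 libraries with the highest summed fibroblast markers, an alternative chosen after the data had been seen, the log2 fold changes of Gm364, Nxf3, 1700013H16Rik and Gm11543 were 3.41, 2.26, -3.64 and 1.56, and that of Wdfy1 turned to -0.03. The part of feeder RNA in the genotype values was otherwise not tested.

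Genes beside each of the 8 on its chromosome were examined next, to see whether the steps extended along it. The 5 nearest tested genes on either side of each gene made 80 neighbours, the farthest 2852 kb away. None of the 80 was called in either pair of lines (edgeR), against 0.0181% of all genes in the wild-type pair and 0.121% in the mutant pair, and 3 (3.75%) had an unadjusted p under 0.05 in the mutant pair and 12 (15%) in the wild-type pair, against 6.88% and 7.61% of all tested genes. The neighbours' median log2 fold changes were 0.11 for Mut-2 over Mut-1 and 0.06 for WT-2 over WT-1. DESeq2 called 0 of the 80 in the mutant pair and 2 in the wild-type pair, where it called 0.266% and 0.242% of all genes. With no filter on low counts edgeR called 0 and 3, against 0.313% and 0.319% of all genes. The sign of the neighbour was that of its gene in 41 of 80 cases in the mutant pair and in 44 of 80 in the wild-type pair.

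The steps of the X-linked genes were not shared by their closest neighbours. Rbmx, 16.1 kb from Gm364, averaged 20.5 CPM in Mut-2, 24.1 in Mut-1, 22.1 in WT-2 and 24.5 in WT-1. Bex2, 3.86 kb from Nxf3, averaged 33.1 CPM in Mut-2, 31.85 in Mut-1, 32.2 in WT-2 and 30.8 in WT-1, while Bex4 on the other side averaged 95.6, 81.4, 97.1 and 79.0 CPM. The gene 4930502E18Rik, 4.46 kb from 1700013H16Rik, averaged 0.569 CPM in Mut-2, 0.632 in Mut-1, 0.680 in WT-2 and 0.461 in WT-1. The median of the 370 tested X-linked genes that averaged 5 CPM or more, less the median of autosomal genes of that level, was 0.03 log2 units for Mut-2 over Mut-1 and 0.04 for WT-2 over WT-1. A more distant X-linked transcript had the pattern of Gm364: Gm14661, annotated as antisense and 3069 kb from it, averaged 0.141 CPM in Mut-2, 1.85 in Mut-1, 0.1875 in WT-2 and 0.289 in WT-1. It is among the genes called in Mut-2 against Mut-1 (log2 fold change -3.605, edgeR adjusted p = 0.0391) and lies within the 10 nearest tested genes on each side of Gm364, but not within the 5 nearest.

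**Figure D3:**
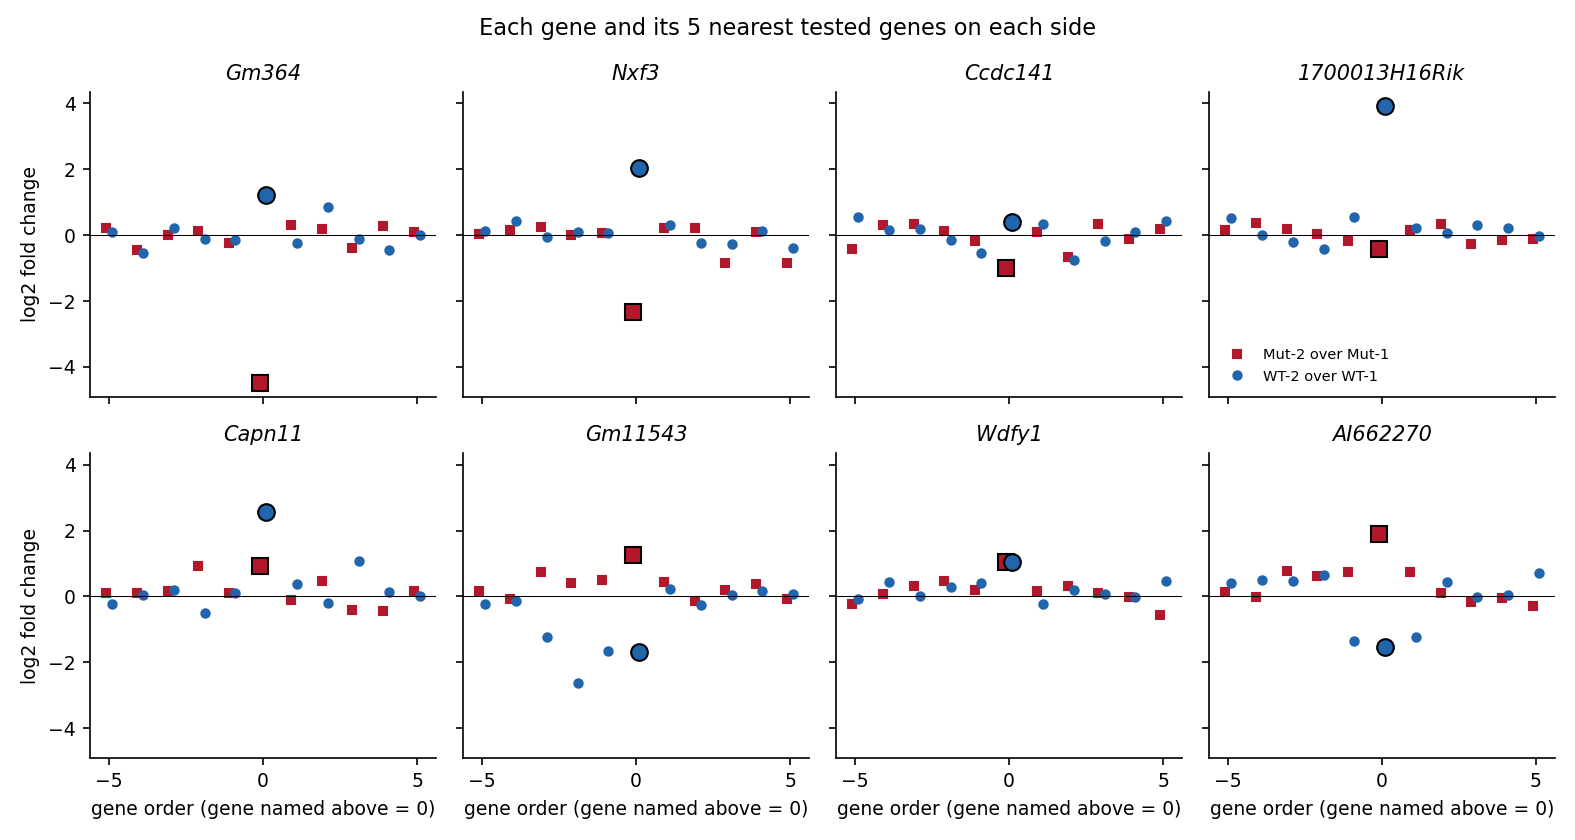
Log2 fold changes of each of the 8 genes (large symbols, position 0) and of its 5 nearest tested genes on each side in gene order (small symbols), for Mut-2 over Mut-1 (red squares) and WT-2 over WT-1 (blue circles). Most neighbours lie near 0. Beside Gm11543, 3 genes on the left lie low in the wild-type pair, at -1.66, -2.63 and -1.23, and both nearest neighbours of AI662270 lie low there, at -1.35 and -1.23.

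On the autosomes, Tmem63b lies 0.846 kb from Capn11 and averaged 69.8 CPM in Mut-2, 75.2 in Mut-1, 80.1 in WT-2 and 61.7 in WT-1, while Mymx on its other side averaged 79.5, 73.8, 88.1 and 81.6 CPM. Sestd1, 9.70 kb from Ccdc141, averaged 27.55 CPM in Mut-2, 25.9 in Mut-1, 25.6 in WT-2 and 20.2 in WT-1, while Ttn, the titin gene, averaged 37.1, 41.5, 32.55 and 47.1 CPM. Ap1s3, 30.3 kb from Wdfy1, averaged 5.11, 4.51, 5.84 and 4.38 CPM. None of these genes had the largest step of the gene it lies beside. For WT-2 over WT-1, where Ccdc141 had a log2 fold change of only 0.40, Sestd1 had 0.34 and Ttn -0.53. Ap1s3 changed in the direction of Wdfy1 in both pairs, but less, by 0.18 for Mut-2 over Mut-1 and 0.41 for WT-2 over WT-1.

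Gm11543 and AI662270 were exceptions. The 3 nearest tested genes on the left of Gm11543 were all lowest in WT-2, as it was, although none was called. AA623943, a pseudogene 14.8 kb away, averaged 3.98 CPM in Mut-2, 2.79 in Mut-1, 0.632 in WT-2 and 2.03 in WT-1. Gm11546, a pseudogene 30.4 kb away, averaged 2.71, 2.03, 0.192 and 1.197 CPM in the same lines, and Tmem92, 45.5 kb away, 9.51, 5.74, 2.13 and 5.01 CPM. Their log2 fold changes of WT-2 over WT-1 were -1.66, -2.63 and -1.23 (edgeR adjusted p = 0.528, 0.270 and 0.488). With no filter on low counts all 3 passed (edgeR adjusted p = 0.0187, 0.00118 and 0.0183), and DESeq2 called Gm11546 (adjusted p = 0.0201). They were singled out after their values had been seen. Farther to the left, Gm11545 and Xylt2 had log2 fold changes of WT-2 over WT-1 of only -0.14 and -0.22. The tested genes on the right of Gm11543 did not share the step, and the neighbours' log2 fold changes ran up to 0.23.

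Both nearest neighbours of AI662270 had its order of line means, with Mut-2 highest, then WT-1, Mut-1 and WT-2. Gm11427, with which it shares sequence, had a log2 fold change of -1.23 for WT-2 over WT-1, which did not pass with edgeR (adjusted p = 0.319) and passed with DESeq2 (adjusted p = 0.0410). Slfn3, a member of the Schlafen family 8.42 kb away, averaged 0.676 CPM in Mut-2, 0.404 in Mut-1, 0.246 in WT-2 and 0.641 in WT-1, a log2 fold change of -1.35 for WT-2 over WT-1 (edgeR adjusted p = 0.583). Slfn2, the next gene on that side, averaged 7.52, 4.93, 4.08 and 2.57 CPM and was highest in Mut-2 but not in WT-1.

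Genes with the most similar course over the 12 libraries were then found by Pearson correlation of log2(CPM + 0.5), among genes that averaged 1 CPM or more. The libraries of a line share their cells and preparation, so the 12 points fall into 4 groups and these values are a description. Gm364 was most like Lmtk2 (r = 0.96) and N4bp2l2 (0.96) on chromosome 5 and Pawr (0.96) on chromosome 10. Nxf3 was most like Gli1 (0.96) and Usp15 (0.93) on chromosome 10 and Rnf216 (0.93) on chromosome 5. Ccdc141 was most like Lmtk2 (0.94) and Slc29a4 (0.94) on chromosome 5, and then like Gm364 (0.93). All of these were highest in Mut-1, and none of the 3 genes itself lies on chromosome 5 or 10.

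The levels show the size of that likeness. Lmtk2, a membrane-bound kinase, averaged 70.4 CPM in Mut-2, 150.2 in Mut-1, 89.1 in WT-2 and 71.2 in WT-1. Gli1, a transcription factor of Hedgehog signalling, averaged 18.5, 42.5, 17.03 and 12.04 CPM in the same lines, and Pawr 58.6, 103.5, 58.8 and 53.2 CPM. All 3 were highest in Mut-1 but present at high levels in the other lines, unlike Gm364. Of the 15 genes called in Mut-2 against Mut-1 that are not among the 8, 8 lie on chromosome 5 and were lower in Mut-2: Ap5z1, Ccz1, Gtf3a, Lmtk2, Pms2, Rbak, Slc29a4 and Zdhhc4. This grouping was seen after the calls, and the share of all tested genes on chromosome 5 was not counted. A link with the 8 genes was not tested.

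Among the 8 genes themselves, Gm364, Nxf3 and Ccdc141 were correlated at 0.93 (Gm364 with Nxf3), 0.93 (Ccdc141 with Gm364) and 0.89 (Ccdc141 with Nxf3). Capn11 and Wdfy1 were correlated at 0.78 and AI662270 and Gm11543 at 0.76, while Gm11543 and 1700013H16Rik ran against each other at -0.82. These pairs were chosen for the lines in which they are high or low, so the values are a description.

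The other genes had likenesses on other chromosomes. 1700013H16Rik was most like Pcm1 (r = 0.94) and Wrn (0.93) on chromosome 8 and Xlr3c (0.93) on the X chromosome. Pcm1, a protein of centriolar satellites, averaged 79.9 CPM in Mut-2, 79.2 in Mut-1, 114.6 in WT-2 and 89.5 in WT-1, while Wrn, a DNA helicase, averaged 16.1, 16.4, 26.4 and 18.4 CPM. Xlr3c, from the same family as the synonym Xlr6, averaged 0.956, 0.759, 3.12 and 0.8865 CPM. WT-2 was highest in all 3, by a far smaller factor in Pcm1 and Wrn than in 1700013H16Rik.

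Gm11543 was most like Gm4971 (0.95) and Ceacam20 (0.95) on chromosome 7 and Gm5662 (0.95) on chromosome 12. Gm5662 averaged 20.4 CPM in Mut-2, 15.1 in Mut-1, 3.69 in WT-2 and 9.33 in WT-1, the same order of lines as Gm11543. Wdfy1 was most like Tbc1d4 (0.90), Tmeff1 (0.90) and Col2a1 (0.90), and Tmeff1 averaged 133.7, 102.9, 137 and 90.5 CPM. Capn11 was most like Mfap2 (0.91), Arhgap10 (0.91) and Tusc3 (0.905), none of which was as low in WT-1: Mfap2 averaged 6.19, 4.64, 5.185 and 3.465 CPM. AI662270 had the weakest likenesses, with 9530053A07Rik (0.88), Bola1 (0.85) and Phlda3 (0.84).

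The whole table was searched for the pattern in the genes' original description. A gene was counted as high in a single line when its lowest library in that line had at least 1 CPM and at least 4 times the highest library of the other lines. Of 16533 genes, 2 met this (0.0121%), Gm364 in Mut-1 (0.00605% of genes) and 1700013H16Rik in WT-2 (0.00605%), and no gene was low in a single line by the mirrored criterion (0.00%). At 8 times, 1700013H16Rik alone remained. At 2 times 11 genes were high in a single line. Of these, Gm364, Nxf3 and 1700013H16Rik are members of the set, and any other named here was named after its values were seen. Genes low in a single line were counted at 4 times only. Capn11 in WT-1 and Gm11543 in WT-2 fell short of that, with gaps between the nearest libraries of 3.49 and 2.94 times.

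**Figure D4:**
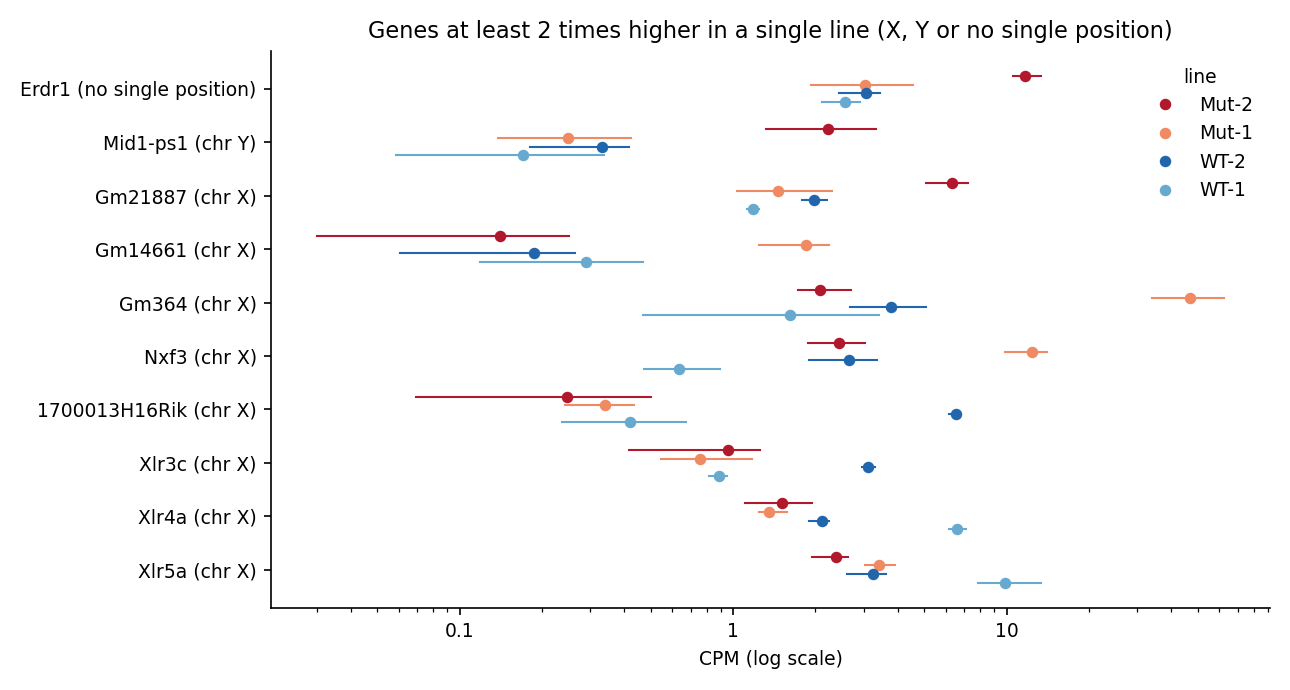
CPM (log scale) of the genes at least 2 times higher in a single line than in any library of the other lines, for those on the X or Y chromosome or with no single position (10 of the 11). Points are line means and bars run from the lowest to the highest of the 3 libraries. Each gene has 1 line set apart to the right, in Mut-2 for 3 genes, in Mut-1 for 3, in WT-2 for 2 and in WT-1 for 2.

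Of the 11 genes high in a single line at 2 times, 8 lie on the X chromosome (72.7%). Of the 16191 tested genes with a position, 571 lie there (3.53%). The 11 include Gm364, Nxf3 and 1700013H16Rik, all X-linked and chosen for differences between lines, so the 72.7% is a description. Its total also includes a gene with no single position, unlike that of the 3.53%. The pseudogene Mid1-ps1 lies on the Y chromosome, and Erdr1 had no single position. These 2 genes and Gm21887 were high in Mut-2. Erdr1 averaged 11.7 CPM in Mut-2, 3.03 in Mut-1, 3.05 in WT-2 and 2.56 in WT-1. In Mut-1 Gm364 and Nxf3 were joined by Gm14661, and in WT-2 1700013H16Rik was joined by Xlr3c.

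In WT-1 the genes were Xlr4a and Xlr5a, so that 3 genes of the Xlr family, besides 1700013H16Rik with its synonym Xlr6, were each high in 1 wild-type line. Xlr4a averaged 1.51 CPM in Mut-2, 1.35 in Mut-1, 2.105 in WT-2 and 6.61 in WT-1, while Xlr5a averaged 2.38, 3.42, 3.25 and 9.86 CPM. Xlr3b averaged 6.71, 8.37, 7.21 and 18.6 CPM and Xlr3a 6.78, 8.01, 11.6 and 24.7 CPM. Their log2 fold changes of WT-2 over WT-1 were -1.65 for Xlr4a, -1.60 for Xlr5a, -1.37 for Xlr3b and -1.09 for Xlr3a, opposite to the 3.93 of 1700013H16Rik, and none passed with edgeR (adjusted p = 0.0672, 0.0738, 0.0738 and 0.4998), whereas DESeq2 called Xlr4a, Xlr5a and Xlr3b. The genes of this family have near-identical copies, so how reads were divided among them is uncertain. The list of X-linked germline and family genes to which they belong had 11 tested members. With edgeR 0 were called in either pair, 3 (27.3%) had an unadjusted p under 0.05 in the mutant pair and 5 (45.5%) in the wild-type pair, against 6.88% and 7.61% of all tested genes. DESeq2 called 0 in the mutant pair and 4 in the wild-type pair, the fourth being Rhox6, against 0.266% and 0.242% of all genes. The list had medians of -0.73 for WT-2 over WT-1 and -0.32 for Mut-2 over Mut-1.

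Levels of genes on the Y chromosome were set beside these. Uty averaged 3.62 CPM in Mut-2, 1.72 in Mut-1, 1.51 in WT-2 and 7.17 in WT-1, while Ddx3y averaged 12.5, 7.03, 4.67 and 15.3 CPM, so Mut-2 and WT-1 were above Mut-1 and WT-2 in both, as in AI662270. Eif2s3y averaged 10.4, 7.47, 5.46 and 11.3 CPM, in the same order. Kdm5d did not have this order, with 2.17, 1.68, 1.33 and 1.445 CPM and a log2 fold change of WT-2 over WT-1 of -0.12 (edgeR adjusted p = 0.970). The log2 fold changes of WT-2 over WT-1 were -2.25 for Uty, -1.71 for Ddx3y and -1.05 for Eif2s3y, and none of the 10 genes of this list passed in either pair with edgeR (adjusted p = 0.0672, 0.0738 and 0.285 for these 3). DESeq2 called all 3 in the wild-type pair and none of the list in the mutant pair, and Uty passed in the wild-type pair with the replicate block. In the mutant pair 2 of the 10 had an unadjusted p under 0.05, as did 3 in the wild-type pair, against 6.88% and 7.61% of all genes. Y-linked genes were detected in all 12 libraries, and Xist, the RNA that coats the silenced X chromosome, was at 17.4 to 45.0 CPM in them. Feeder cells can contribute both kinds of transcript, and their part was not tested.

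Genes of the germline programme were examined as a list. Of 28 germline genes known to be silenced by DNA methylation, 27 were tested and 0 were called in either pair by edgeR, with 5 (18.5%) at an unadjusted p under 0.05 in the mutant pair and 3 (11.1%) in the wild-type pair, against 6.88% and 7.61% of all genes. The list had medians of -0.25 for Mut-2 over Mut-1 and -0.24 for WT-2 over WT-1. Brdt, a testis-specific bromodomain protein, averaged 4.81 CPM in Mut-2, 6.685 in Mut-1, 3.09 in WT-2 and 8.16 in WT-1 (log2 fold change of WT-2 over WT-1 -1.40, edgeR adjusted p = 0.260), and it was the only gene of the list that DESeq2 called, in that pair. Ddx4, a germ cell helicase, averaged 15.2, 21.3, 21.4 and 22.7 CPM. Late male germ cell markers were near 0, with 10 of them summing to 1.73 to 2.63 CPM in Mut-2, 2.36 to 2.42 in Mut-1, 1.65 to 2.23 in WT-2 and 1.52 to 1.89 in WT-1. The protamine genes Prm1 and Prm2 averaged at most 0.141 and 0.0202 CPM in any line.

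Genes listed for DNA methylation, its enzymes and associated factors such as Setdb1 and Trim28, did not pass either. None of 12 was called in either pair of lines by edgeR or DESeq2, and 0 had an unadjusted p under 0.05 in the mutant pair and 1 (8.33%) in the wild-type pair, near the 7.61% of all genes. The list had medians of 0.08 for Mut-2 over Mut-1 and -0.08 for WT-2 over WT-1. Dnmt3a averaged 57.9 CPM in Mut-2, 46.85 in Mut-1, 64.5 in WT-2 and 68.9 in WT-1. Uhrf1, which guides the maintenance methyltransferase, averaged 595.3, 469.3, 699.6 and 607.5 CPM, and the dioxygenase gene Tet2 140.7, 132.2, 103 and 159.5 CPM.

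Markers of other cell types gave 1 call. Krt8, a keratin on the trophoblast list, averaged 22.6 CPM in Mut-2, 46.6 in Mut-1, 23.9 in WT-2 and 36.7 in WT-1. It was lower in Mut-2 than in Mut-1 (log2 fold change -1.05, edgeR adjusted p = 0.0110). It had its highest mean in Mut-1, like Gm364, Nxf3 and Ccdc141. The 8 tested trophoblast genes had a median of -0.44 in that pair, and their list summed to 65.8 to 107.9 CPM in Mut-2, 110.3 to 144.1 in Mut-1, 102.4 to 142.9 in WT-2 and 130.9 to 140.5 in WT-1. The defining trophoblast genes Cdx2 and Elf5 averaged at most 0.936 and 0.169 CPM in any line. None of the 12 pluripotency genes, 23 fibroblast, 9 endoderm and 8 neural genes tested was called in either pair by edgeR or DESeq2. Of these 52, 2 (3.85%) had an unadjusted p under 0.05 in the mutant pair and 3 (5.77%) in the wild-type pair. The shares of all genes were 6.88% and 7.61%. Of the 3, 2 were among the 12 pluripotency genes (16.7%). On the trophoblast list, which is not part of the 52, 2 of 8 (25%) did so in the mutant pair and 1 (12.5%) in the wild-type pair. The medians of the pluripotency, fibroblast, endoderm and neural lists lay between -0.18 and 0.25. The part of these cell types in the levels of the 8 genes was not tested.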

How the data were processed

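RNA-seq read counts per gene were deposited by the authors for 12 libraries of 4 lines as whole-number counts that were not normalized. Per the submitters' processing notes the tools were HTSeq 0.6.0, HISAT2 2.1.0, Bowtie2 2.2.3 and bcl2fastq, and the build was GRCm38. What each tool did, and whether counting used strand or which annotation, is not given in the sources used here. Reads of overlapping genes therefore cannot be told apart. A table of transposable elements mentioned in the labels is not analysed here. The 8 genes, the gene lists and the rules were chosen with earlier results of these data known.

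Counts were analysed with edgeR 4.0.16 in R 4.3.3 (TMM normalization, filterByExpr, quasi-likelihood test, Benjamini-Hochberg adjustment). The genotype was tested on the summed counts of the 3 libraries of each line, 2 lines against 2. Pairs of lines were compared in 1 fit of the 12 libraries with 4 line groups, and a gene was called when its adjusted p was below 0.05 and it differed by 1 log2 unit or more. Their p-values measure only the spread between libraries of a line, which may be technical. CPM values are TMM-normalized, and those per kb use exon lengths of GENCODE M21 on GRCm38, where 29383 of 31641 symbols matched by name and 184 by an older symbol. Correlations used log2(CPM + 0.5). Promoters came from RefSeq. DESeq2 1.42.0, limma 3.58.1 and left-out libraries and lines were alternatives, and the scripts were tested on simulated data.

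Same-number libraries of both pairs of lines deviated together: over 11412 genes the correlations of deviations from the line means were 0.493, 0.139 and 0.344 between Mut-2 and Mut-1, and 0.194, 0.368 and 0.621 between WT-2 and WT-1. Each exceeded 0.1, the rule set for treating the numbers as a pairing of libraries. No values for libraries of different numbers are given beside them, so the pairing is not established. The main counts leave the replicate number out. The fit with it as a block is given where it changed a count by over 1.5 times. The genes named are the 8, up to 4 of each list by smallest p, the nearest neighbour on each side and any called, and the 3 most correlated genes; others are said to be named after their values were seen. Values of 2 genes that these rules select are not reported here.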

Additional observations from a re-analysis of the deposited data

Results flagged for a closer look

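In AI662270 and Ccdc141 the genotype difference had opposite directions in the same-numbered pairs of lines, with no overlap of libraries within a pair. The 8 genes were chosen to differ between lines of 1 genotype, which itself makes opposite directions likely. The share of all genes with this pattern was not counted, and the difference between the pairs was not tested. AI662270 averaged 5.11 CPM in Mut-2 and 1.16 CPM in WT-2, a log2 ratio of line means of 2.13, but 1.37 CPM in Mut-1 and 3.42 CPM in WT-1, a log2 ratio of -1.32. Ccdc141 averaged 14.4 CPM in Mut-2 and 18.6 CPM in WT-2, a log2 ratio of -0.367, but 29.1 CPM in Mut-1 and 14.1 CPM in WT-1, a log2 ratio of 1.04. The lines' numbers are names only and pair no mutant line with a wild-type line.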

How the results depend on the processing

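The count of genes called in mutant against wild-type lines, 0 with edgeR on line totals, was 1 with RLE size factors, 77 with no filter on low counts, 359 with DESeq2, 233 with limma on libraries with line as a random block, 319 with edgeR on libraries with the replicate block, 92 without the line Mut-2, 158 without Mut-1, 53 without WT-1, and 0 to 96 without single libraries. For WT-2 against WT-1 the count of 3 was 101 with no filter, 40 with DESeq2, 6 with the replicate block, 1 with WT-1 replicates 1 and 2 summed, and 0 to 35 without single libraries. For Mut-2 against Mut-1 the count of 20 was 99 with no filter, 44 with DESeq2, 28 with the replicate block, 1 without the 3 libraries of highest fibroblast markers (which leaves 1 Mut-2 library), and 2 to 29 without single libraries. Of the 80 neighbours, 0 were called in either pair, but 3 in the wild-type pair with no filter and 2 with DESeq2, and 1 in the mutant pair when 10 genes on each side were taken. The count of 2 genes high in a single line was 11 at 2 times, 1 at 8 times and 2 to 3 without single libraries. The log2 fold change of mutant over wild type changed sign for Wdfy1 to -0.452 without Mut-2, -0.236 without WT-1 and -0.034 without the 3 libraries of highest fibroblast markers, for AI662270 to -0.782 without Mut-2 and -0.109 without WT-2, for Gm364 to -0.362 without Mut-1, and for Ccdc141 to -0.181 without Mut-1. The cause was not tested in any of these. None of the 8 genes changed direction within a pair of lines of 1 genotype under any alternative, and the replicate block gave calls to Nxf3 (edgeR adjusted p = 0.0180) and Uty in the wild-type pair and changed no other call on the 8 genes, their neighbours or the listed genes. For 1700013H16Rik, 12 to 22 counts per line outside WT-2 limit what can be said of differences among those lines.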
